A study of Homo sapiens with 5 samples.

Results

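The D-type cyclins, their partner kinases, the inhibitors that hold them back and the retinoblastoma protein are 10 of the 23459 genes counted in these libraries. They are CCND1, CCND2 and CCND3 (cyclins D1, D2 and D3), CDK4 and CDK6, CDKN1B (p27), CDKN2A (p16 and p14ARF), CDKN2B (p15), CDKN2C (p18) and RB1. Members were taken by matching the Entrez identifiers of the table to these symbols, and all 10 were found. The group was chosen by the CCND2 counts of these same libraries, which were near absent under one guide and plain under the other, so the values of CCND2 are given as a description and carry no test.

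The cells were MCF10A, an immortalised line of human mammary epithelium, made into SAM cells by infection with dCas9-VP64 and MCP-p65-HSF1. These components recruit transcriptional activators to whichever promoter a guide RNA addresses, and both groups carried them. One group, NTC, had a non-targeting control guide (3 libraries), and the other, sgJUN#1, had a guide against the JUN promoter (2 libraries). The SAM cells were clonal, and no second JUN guide was sequenced here. The labels do not say whether replicates were separate cultures, so p-values measure only the spread between these libraries.

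D-type cyclins are made in response to mitogens and bind CDK4 or CDK6 in G1. The active kinases phosphorylate RB1, which then releases E2F factors that transcribe the genes of DNA synthesis. The INK4 proteins (p16, p15, p18 and p19) bind CDK4 and CDK6 directly, whereas the CIP/KIP proteins (p21, p27 and p57) bind cyclin-CDK complexes, and MCF10A cells are known for having lost the chromosome 9 region with CDKN2A.

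The libraries held between 2455627 and 4988062 counts, and levels are given as CPM, counts scaled to a common (TMM-normalised) library size. A count of 0 allows a level of up to 3 counts, which was 0.619 to 1.22 CPM depending on the library. JUN, the targeted gene, had 25.03, 36.22 and 9.32 CPM in NTC and 171.5 and 265.5 CPM in sgJUN#1. Both sgJUN#1 libraries were above all NTC libraries, although the log2 fold change of 3.25 (SE 0.484) missed the threshold with edgeR's quasi-likelihood test over all genes (adjusted p = 0.0733).

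NTC replicate 3 stood apart from the other controls in cell-cycle genes. The summed level of 13 G2/M and proliferation genes was 2462, 2614 and 1117 CPM in NTC replicates 1 to 3, against 1861 and 1633 CPM in sgJUN#1. For this reason values that moved with that library are given below also without it.

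The cells expressed epithelial markers, with 1113 to 6245 counts of KRT6A, 392 to 2048 of KRT5 and 484 to 2790 of LAMB3, whereas the basal keratin KRT14 (4 to 13 counts), KRT17 (0 to 79) and TP63 (14 to 27) were low. The summed level of 10 epithelial markers was 1057 to 1852 CPM in NTC and 1191 to 2538 CPM in sgJUN#1. Among these 10, EPCAM and CDH1 are general epithelial markers and not basal ones. The sum of 4 luminal markers was 56.98 to 169.9 CPM in NTC and 53.87 to 54.74 CPM in sgJUN#1. The sum of the 10 hides markers that differed in opposite directions without overlap, 3 higher and 2 lower in sgJUN#1. Over all tested genes 12.2% were higher and 12.8% lower without overlap. EPCAM had 23.65, 7.33 and 23.29 CPM in NTC and 143.9 and 56.53 CPM in sgJUN#1 (log2 fold change 2.44, edgeR adjusted p = 0.210), and CDH3 had 69.6, 43.96 and 60.1 against 114.3 and 71.9 CPM (0.69, edgeR adjusted p = 0.521). ITGB4 had 118.8, 47.6 and 292.3 CPM in NTC and 26.4 and 26.1 CPM in sgJUN#1 (-2.55, edgeR adjusted p = 0.459). At low counts, KRT17 had 0, 4.48 and 5.99 against 16.3 and 7.87 CPM (1.80, edgeR adjusted p = 0.628). KRT14 had 2.20, 3.26 and 2.88 against 0.826 and 1.79 CPM (-1.16, edgeR adjusted p = 0.660). Of the luminal markers, GATA3 had 75.4, 43.1 and 154.6 against 36.3 and 41.15 CPM, also without overlap (-1.25, edgeR adjusted p = 0.556). Defining markers of other cell types were near the floor, with PTPRC at 0 to 10 counts, CD3E at 0 in all libraries, COL1A2 at 0 or 1 and PECAM1 at 0 to 2. The summed level of 5 fibroblast markers was 25.6 to 92.3 CPM in NTC and 30.6 to 55.1 CPM in sgJUN#1, and most of it was DCN (65 to 396 counts). The monocyte marker CD14 had 4 to 107 counts, highest in NTC replicate 3, and the 3 endothelial markers summed to 7.70 to 10.99 CPM in NTC and 7.51 to 9.91 CPM in sgJUN#1. NTC replicate 3 also had the highest fibroblast and luminal sums, and their part in the results was not tested. In bulk RNA, fewer cells expressing a gene and less of its RNA per cell cannot be told apart.

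Of the D-type cyclins, CCND2 had the large difference that led to the choice of this group, and for CCND1 and CCND3 the groups overlapped. CCND2 (Entrez 894, GRCh37 chromosome 12, 4378937 to 4414519, plus strand) encodes cyclin D2, which is prominent in haematopoietic, ovarian and neural progenitor cells. It had 2, 1 and 6 counts in NTC and 135 and 168 counts in sgJUN#1. In CPM this was 0.550, 0.407 and 1.33 in NTC and 27.9 and 60.1 in sgJUN#1, or 0.763 ± 0.497 (SD, n = 3) and 43.99 ± 22.8 (SD, n = 2).

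The groups did not overlap for CCND2, and the 2 sgJUN#1 libraries themselves differed, with exact Poisson 95% intervals of 23.4 to 33.0 and 51.4 to 69.9 CPM. The NTC libraries were near the floor, with intervals reaching up to 1.99, 2.27 and 2.90 CPM. These intervals cover counting error only. The fitted log2 difference was 5.64. It was 6.36 without NTC replicate 3, the library with most of the control counts, and 5.02 without sgJUN#1 replicate 2, the library with the higher level.

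**Figure D1:**
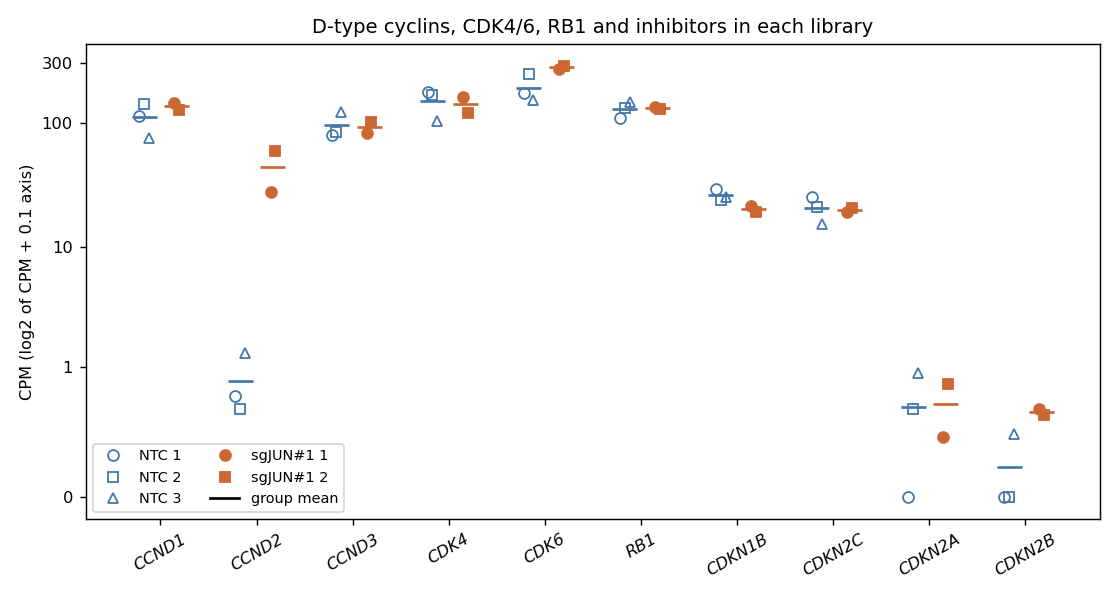
Levels of the 10 members in each library, in CPM on a log2(CPM + 0.1) axis. Open blue symbols are NTC libraries, filled orange symbols are sgJUN#1 libraries and horizontal lines are group means. CCND2 is between 0.407 and 1.33 CPM under the control guide and reaches 27.9 and 60.1 CPM under sgJUN#1, CDKN2A and CDKN2B stay under 1 CPM in every library, and the other members differ far less between groups.

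CCND1 (Entrez 595, chromosome 11, 69455924 to 69469242), which encodes the cyclin D best known in mammary epithelium, had 114.4, 142.9 and 76.3 CPM in NTC and 145.7 and 127.7 CPM in sgJUN#1. NTC replicate 3 was the low library and the groups overlapped. The fitted change was 0.30 on the log2 scale (SE 0.262, 95% interval -0.28 to 0.89, edgeR adjusted p = 0.797), and without NTC replicate 3 it was 0.09.

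CCND3 (Entrez 896, chromosome 6, 41902672 to 42018095), which encodes cyclin D3, had 80.3, 84.2 and 123.1 CPM in NTC and 83.2 and 102.3 CPM in sgJUN#1. Here NTC replicate 3 was the highest library, opposite to its place in CCND1, and the groups overlapped. Its log2 fold change was close to 0, at -0.05 (SE 0.241, 95% interval -0.60 to 0.49, edgeR adjusted p = 0.973), and it turned to 0.17 without NTC replicate 3.

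Reads from 3′ libraries come from near the end of each transcript, so counts of the cyclin genes were set against each other without scaling for length. CCND2 made up 0.282%, 0.179% and 0.663% of all D-type cyclin counts in NTC and 10.9% and 20.7% in sgJUN#1, with exact 95% binomial intervals of 9.18% to 12.7% and 18.0% to 23.7% for the latter. In every library CCND2 was the least counted of the D-type cyclins. CCND1 was the most counted in 4 of the 5 libraries, with shares of 58.6%, 62.8% and 38.0% in NTC and 56.8% and 44.02% in sgJUN#1. CCND3 took 41.1%, 37.03% and 61.3% in NTC and 32.4% and 35.3% in sgJUN#1, so NTC replicate 3 was the library in which CCND3 exceeded CCND1.

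**Figure D2:**
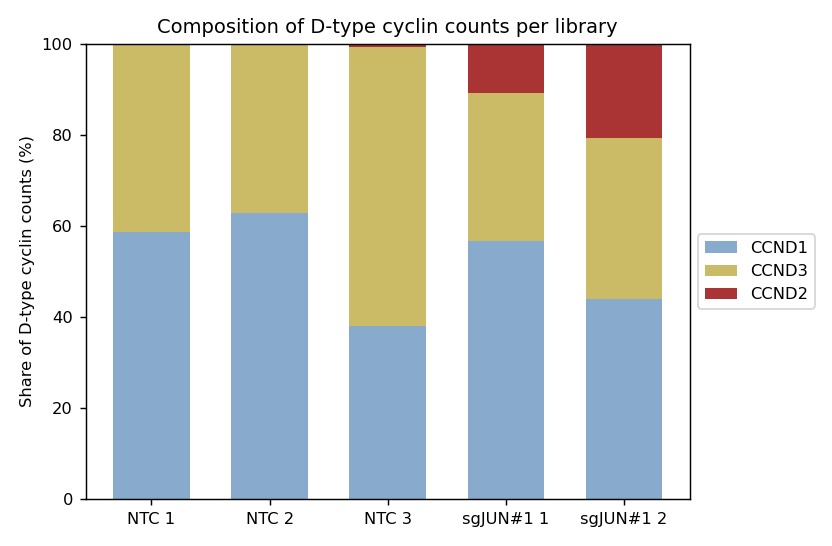
Composition of the D-type cyclin counts in each library, as the percentage of CCND1 + CCND2 + CCND3 counts on the y axis. The CCND2 share is at most 0.663% in the 3 NTC libraries and is 10.9% and 20.7% in the 2 sgJUN#1 libraries, and the CCND1 share is lowest in NTC replicate 3.

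The summed level of the D-type cyclins was 195.3, 227.5 and 200.7 CPM in NTC and 256.8 and 290.2 CPM in sgJUN#1. Without CCND2 the sums were 194.7, 227.1 and 199.4 CPM in NTC and 228.9 and 230.1 CPM in sgJUN#1. The sgJUN#1 libraries were above the controls in either sum, and without CCND2 they were only just above NTC replicate 2.

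CDK6 and CDK4 were both well expressed, and CDK6 was the tested member besides CCND2 with the largest difference. CDK6 (Entrez 1021, chromosome 7, 92234235 to 92465887, minus strand) had 175.5, 246.2 and 154.2 CPM in NTC and 268.9 and 288.7 CPM in sgJUN#1. Both sgJUN#1 libraries were above all controls, the nearest of which was NTC replicate 2. Mean levels were 192.0 ± 48.2 (SD, n = 3) and 278.8 ± 14.0 (SD, n = 2).

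The log2 fold change of CDK6 was 0.54 (SE 0.231, 95% interval 0.02 to 1.06). In edgeR's quasi-likelihood test the unadjusted p was 0.0424 and the adjusted p over all genes 0.575, so CDK6 missed the threshold. Without NTC replicate 2 the log2 fold change was 0.757 and without NTC replicate 3 it was 0.405, the highest and lowest of 12 alternative fits, in which the lowest adjusted p was 0.327.

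CDK4 (Entrez 1019, chromosome 12, 58141510 to 58149796, minus strand) had 176.6, 168.9 and 103.4 CPM in NTC and 162.6 and 120.6 CPM in sgJUN#1. The groups overlapped, with NTC replicate 3 lowest. For CDK4 the log2 fold change came to -0.07 (SE 0.267, 95% interval -0.67 to 0.52, edgeR adjusted p = 0.965), and without NTC replicate 3 it was -0.28.

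The balance between the kinases was compared within each library. CDK6 made up 49.8%, 59.3% and 59.9% of CDK4 + CDK6 counts in NTC and 62.3% and 70.5% in sgJUN#1, a mean difference of 10.1 percentage points. The groups did not overlap, and the two-sided exact permutation p was 0.1, which is the smallest value this number of libraries can give.

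Of the inhibitors, CDKN1B and CDKN2C were expressed at moderate levels, and CDKN2A and CDKN2B had almost no counts. CDKN1B (Entrez 1027, chromosome 12, 12838432 to 12875303) had 29.7, 24.0 and 25.3 CPM in NTC and 21.5 and 19.3 CPM in sgJUN#1. Both sgJUN#1 libraries were below all controls, though by a small margin to NTC replicate 2. On the log2 scale this was a change of -0.37 (SE 0.238, 95% interval -0.90 to 0.17, edgeR adjusted p = 0.737), and its 12 alternative values ran from -0.45 to -0.27.

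CDKN2C (Entrez 1031, chromosome 1, 51426417 to 51440306) had 25.3, 21.2 and 15.5 CPM in NTC and 19.4 and 20.8 CPM in sgJUN#1. The sgJUN#1 values lay inside the range of the controls. Accordingly the fitted log2 change was -0.04 (SE 0.277, 95% interval -0.66 to 0.58, edgeR adjusted p = 0.981), and without NTC replicate 3 it was -0.22.

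CDKN2A (Entrez 1029, chromosome 9, 21967751 to 21995300) had 0, 1 and 4 counts in NTC and 1 and 2 counts in sgJUN#1. CDKN2B (Entrez 1030, chromosome 9, 22002902 to 22009304), its neighbour, had 0, 0 and 1 counts in NTC and 2 and 1 counts in sgJUN#1. Both were under the filter on low counts and were not tested. Pooled counts were 5 against 3 for CDKN2A, a sgJUN#1 to NTC rate ratio of 0.833 (95% counting interval 0.129 to 4.28), and 1 against 3 for CDKN2B, a rate ratio of 4.16 (0.334 to 219), so no difference was detectable from these few counts.

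The genes around CDKN2A and CDKN2B on chromosome 9 differed widely in counts. DMRTA1 had 0 or 1 count per library, the antisense gene CDKN2B-AS1 6 to 16, MTAP 5 to 27, HACD4 3 to 10, IFNE 3 or 4, and the interferon gene IFNB1 was at 0 in all libraries. Others on either side were well counted: MIR31HG had 176 to 359 counts, FOCAD 148 to 280, TUSC1 112 to 251, ELAVL2 55 to 155 and MLLT3 23 to 67. Of the 7 tested genes of this list 0 passed the edgeR threshold, beside 0.206% of all tested genes, and for 0 of 7 the groups did not overlap, beside 25%. Their median log2 fold change was 0.14.

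RB1 (Entrez 5925, chromosome 13, 48877880 to 49173572), the substrate of CDK4 and CDK6, had 109.2, 131.9 and 147.7 CPM in NTC and 134.8 and 128.4 CPM in sgJUN#1. The sgJUN#1 libraries were within the range of the controls. Fitted over both groups, RB1 differed by 0.02 on the log2 scale (SE 0.203, 95% interval -0.43 to 0.48, edgeR adjusted p = 0.987), and without NTC replicate 3 it was 0.13.

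Taking the 7 tested members other than CCND2, 0 passed edgeR's adjusted threshold of 0.05, as against 0.206% of 13616 tested genes, and 1 (CDK6) had an unadjusted p under 0.05, as against 8.38%. The groups did not overlap for 2 of the 7, CDK6 higher and CDKN1B lower, as against 25% of all tested genes, so that share was near the background. The median log2 fold change was -0.04, beside -0.01 over all tested genes, and 3 of 7 were above 0, beside 49%. Past the threshold in DESeq2 or with the replicate block there were also 0 of the 7, as against 0.975% and 0.756% of tested genes, and 0.0808% of all genes passed upward in edgeR. The block adds a term for replicate number. Replicate 3 exists only in NTC, so that library then has no part in the group difference. The 95% intervals of the 7 had lower ends of -0.90 to 0.02 and upper ends of 0.17 to 1.06 on the log2 scale, so a missed threshold does not show equal levels.

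**Figure D3:**
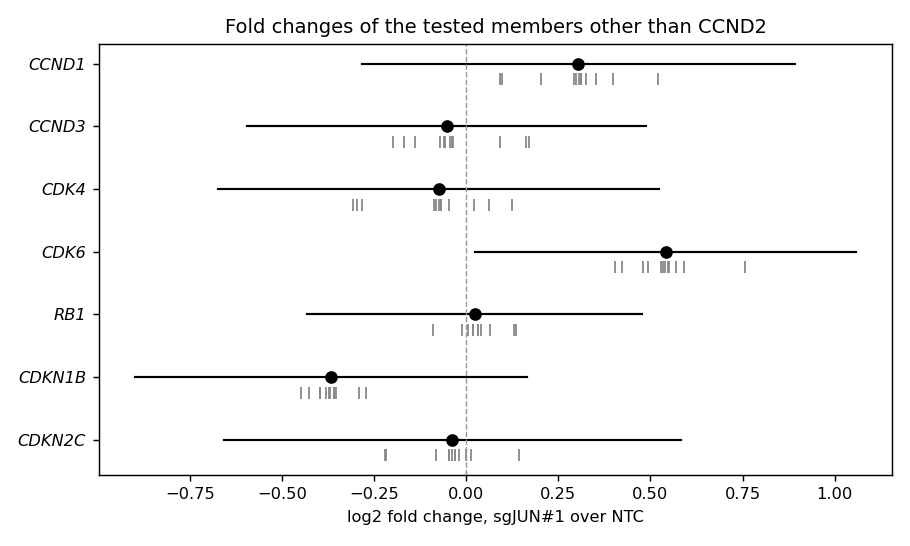
Log2 fold changes (sgJUN#1 over NTC, x axis) of the 7 tested members other than CCND2. Points are fitted values, black lines their 95% intervals, and grey ticks the values in 12 alternative fits. The intervals of all but CDK6 (0.02 to 1.06) cross 0, and the ticks of CCND1, CDK6 and CDKN1B stay on their own side of 0.

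Genes that act with the members were read from 7 lists, none of whose 77 tested genes (of 78 listed, STAT5A being under the filter) passed the adjusted edgeR threshold. At an unadjusted p under 0.05, 1 was higher (CDKN1A) and 2 were lower (CUL4B and CDC20), a share below the background of 8.38%. The groups did not overlap for 4 genes in the upward and 5 in the downward direction, as against 12.2% and 12.8% of all genes.

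The remaining inhibitors did not move together. CDKN1A, the p53 target p21, had 107.0, 116.0 and 81.2 CPM in NTC and 178.5 and 225.4 CPM in sgJUN#1, so all sgJUN#1 values were above the controls. It differed by 1.00 on the log2 scale (SE 0.220) with an edgeR adjusted p of 0.176, and it passed with DESeq2 (adjusted p = 0.0322) and in edgeR with no filter on low counts (adjusted p = 0.0319). CDKN1C, which encodes p57, had 89.1, 11.4 and 154.2 CPM in NTC and 27.04 and 15.03 CPM in sgJUN#1. NTC replicate 2 was the lowest library of all, so the groups overlapped. The log2 fold change of CDKN1C was -2.00 (SE 0.967, edgeR adjusted p = 0.664), and without NTC replicate 2 it was -2.51 and passed (edgeR adjusted p = 0.0324). CDKN2D, the p19 member of the INK4 family, had a log2 fold change of 0.52 (edgeR adjusted p = 0.784).

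Of the genes for the RB1 relatives RBL1 and RBL2, the E2F factors and their DP partners, 8 of 12 had log2 fold changes above 0, with a median of 0.13. It was -0.06 without NTC replicate 3, -0.003 without sgJUN#1 replicate 1 and -0.07 with the replicate block. The activator E2F2 had the largest value at 1.06 (edgeR adjusted p = 0.664), from 3.30, 6.51 and 1.77 CPM in NTC to 10.3 and 4.29 CPM in sgJUN#1. E2F1 had 0.48 (edgeR adjusted p = 0.867), and TFDP2, a DP partner of E2F, -0.38 (edgeR adjusted p = 0.706). Among the G1/S E2F targets, the DNA replication and nucleotide synthesis genes, 21 of 23 were above 0, beside 49% of all tested genes, with a median of 0.25.

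That median depended on single libraries. The median log2 CPM of the E2F targets relative to the NTC mean was 0.33, 0.44 and -0.80 in NTC replicates 1 to 3 and 0.58 and 0.11 in sgJUN#1. Over the list, the median log2 fold change was 0.04 without NTC replicate 3, -0.001 without sgJUN#1 replicate 1 and 0.001 with the replicate block. The largest values were those of CDC6, which loads the replicative helicase (0.78, edgeR adjusted p = 0.752), the ribonucleotide reductase subunit RRM2 (0.67, edgeR adjusted p = 0.802) and the helicase subunit MCM4 (0.60, edgeR adjusted p = 0.761).

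Of the G2/M and proliferation genes, 3 of 13 were above 0 and the median log2 fold change was -0.16. It was -0.44 without NTC replicate 3, -0.36 without sgJUN#1 replicate 1, 0.07 without NTC replicate 2 and -0.03 without sgJUN#1 replicate 2, so neither its size nor its direction held. The anaphase-promoting complex activator CDC20 had 56.1, 60.2 and 32.8 CPM in NTC and 21.5 and 35.8 CPM in sgJUN#1, which gave -0.80 on the log2 scale (edgeR adjusted p = 0.552). CENPF, a kinetochore protein, had -0.43 (edgeR adjusted p = 0.759) and the mitotic kinase PLK1 -0.41 (edgeR adjusted p = 0.804). The groups were free of overlap for 0 of the 13 genes, beside 25% of all tested genes.

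**Figure D4:**
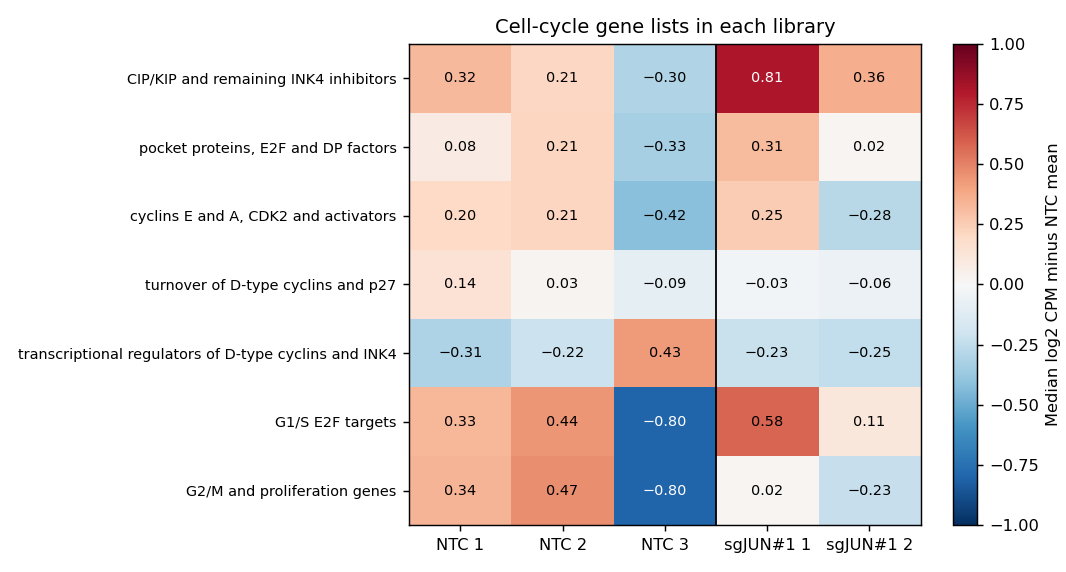
Median log2 CPM of each cell-cycle gene list in each library, relative to the mean of the NTC libraries (columns are libraries, rows are lists, colour and printed number are the median). NTC replicate 3 is at -0.80 for both the G1/S and the G2/M lists, below every other library, and at 0.43 for the transcriptional regulators, above every other library.

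Cyclins E and A, CDK2 and its activators take over from cyclin D-CDK4/6 at the G1/S transition. Of 8 genes, 5 were above 0 and the median log2 fold change was 0.13, which became -0.30 without sgJUN#1 replicate 1, -0.01 without NTC replicate 3 and -0.05 with the replicate block. CDC25A, the phosphatase that activates CDK2, had 0.59 (edgeR adjusted p = 0.680), CCNA2 (cyclin A2) -0.43 (edgeR adjusted p = 0.789) and CCNE1 (cyclin E1) 0.41 (edgeR adjusted p = 0.856).

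Turnover genes, which encode ubiquitin ligase parts and cofactors acting on D-type cyclins and p27, had 4 of 11 above 0 and a median of -0.02. CUL4B, a cullin scaffold, had 852.7, 808.3 and 588.7 CPM in NTC and 429.7 and 475.5 CPM in sgJUN#1. The sgJUN#1 libraries were the lowest, and the difference was -0.73 on the log2 scale (SE 0.216, edgeR adjusted p = 0.351). CKS1B, a cofactor in p27 degradation, had -0.37 (edgeR adjusted p = 0.863) and AMBRA1, a cyclin D ubiquitin ligase adaptor, 0.16 (edgeR adjusted p = 0.858).

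Among transcriptional regulators of D-type cyclin and INK4 genes, 2 of 7 tested were above 0 and the median was -0.33, which turned to 0.11 without NTC replicate 3. FOXO1, a forkhead factor known to act on CCND2 and CDKN1B, had 340.8, 364.3 and 610.4 CPM in NTC and 142.4 and 333.5 CPM in sgJUN#1, which gave -0.89 on the log2 scale (SE 0.392, edgeR adjusted p = 0.601). Both sgJUN#1 libraries were under all controls, the second of them only just. STAT5B had -0.73 (edgeR adjusted p = 0.604) and STAT3 -0.34 (edgeR adjusted p = 0.833), and STAT5A had at most 1.79 CPM in any library.

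The genes flanking CCND2 on chromosome 12 were read from the same fit. TIGAR, which begins 2409 bp downstream of CCND2, had 66.3, 78.2 and 50.4 CPM in NTC and 81.7 and 84.8 CPM in sgJUN#1, which gave 0.36 on the log2 scale (SE 0.226, edgeR adjusted p = 0.720). Over the 10 tested neighbours 0 passed the edgeR threshold, beside 0.206% of all tested genes. Their median log2 fold change was 0.05 and their range -0.75 (FGF23) to 0.51 (AKAP3). The groups did not overlap, always upward, for 3 of these 10, as against 12.2% of all genes.

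By counts per library, these neighbours were TSPAN9 (463 to 1094), TIGAR (192 to 396), RAD51AP1 (53 to 190), NDUFA9 (73 to 168), PARP11 (88 to 161), FERRY3 (52 to 106), DYRK4 (49 to 96), AKAP3 (20 to 62), FGF23 (14 to 57) and PRMT8 (8 to 18). FGF6 was at 0 in every library.

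Overlapping genes limit some of these values, because it is not stated whether reads were counted by strand. Exons of CCND2 overlap those of the antisense gene CCND2-AS1 and of 2 further annotated genes, none of which was among the counted genes. These 2 are a non-coding gene on the opposite strand and a protein-coding gene on the same strand. Counting by strand would not separate the latter from CCND2. Exons of CCND1 overlap LTO1 (51 to 99 counts), those of CDK4 overlap TSPAN31 (26 to 59 counts) and those of CDKN2A overlap CDKN2B-AS1, each on the opposite strand. Exons of CDK6 overlap those of the antisense gene CDK6-AS1. Exons of CCND3 and CDKN2C also overlap those of non-coding genes on the opposite strand. None of these non-coding genes of CDK6, CCND3 and CDKN2C was among the counted genes. CDKN1B and RB1 overlap GPR19 (100 to 241 counts) and LPAR6 (81 to 208 counts) in gene bodies but not in exons. The part of such reads in the members' counts was not tested.

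The genes whose levels followed those of CCND2 most closely were found by Pearson's r of log2 CPM over the 5 libraries, which share a group difference and are few, so r is a description only. For CCND2 these were TP53BP2 (r = 0.999), ZNF718 (0.996), NAA10 (0.996), GABRE (0.995) and SFT2D3 (0.993), and 103 of 13615 genes had r above 0.95. TP53BP2, which encodes the p53-binding protein ASPP2, had 33.6, 33.0 and 35.3 CPM in NTC and 43.1 and 46.2 CPM in sgJUN#1, a far smaller difference than that of CCND2.

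For CDK6 the closest genes were PLAUR (0.998), METTL13 (0.997), SNAI2 (0.996), STC1 (0.995) and FAM86DP (0.995), with 170 of 13615 genes above 0.95. PLAUR, the urokinase receptor, had 30.3, 65.1 and 22.4 CPM in NTC and 74.1 and 82.3 CPM in sgJUN#1, and SNAI2, the transcription factor SLUG, had 26.96, 65.5 and 19.5 CPM and 72.0 and 101.6 CPM. In both, as in CDK6, NTC replicate 2 was the highest control.

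For CDKN2C the closest genes included SV2C (0.999), MZT1 (0.993), BIRC5 (0.991) and RNF26 (0.988), with 113 of 13615 genes above 0.95. BIRC5, which encodes the mitotic protein survivin, had 74.0, 58.2 and 28.8 CPM in NTC and 46.0 and 50.1 CPM in sgJUN#1. It shared with CDKN2C a lowest value in NTC replicate 3 and sgJUN#1 values within the control range.

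Promoters were searched for the AP-1 heptamer TGANTCA, the sequence that JUN dimers are known to bind, and for the octamer TGACGTCA, which JUN-ATF dimers bind, on both strands, and neither string contains the other. RefSeq windows on GRCh38.p14, all of one length and reaching from upstream of an annotated start to just past it, covered 8 of the 10 members in 14 windows, and CCND1 and CCND2 had none. The heptamer occurred in 7.71% of all 35116 windows and the octamer in 1.85%. Of the members' windows only that of RB1 (chr13:48476200-48476499, plus strand) held a match, of the heptamer, whose first base is 210 bases before the start in question. That start is an internal one, 172699 bp past the first base of RB1 in RefSeq (chromosome 13, 48303751 to 48481890 on GRCh38.p14), and the window at the 5′ end of RB1 was not searched. The bases around it are shown because it was the single match, with the heptamer in capitals (chr13:48476210-48476276).
RB1: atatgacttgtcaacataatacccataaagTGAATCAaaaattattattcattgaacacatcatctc
A match in letters does not show binding.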

How the data were processed

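Messenger RNA of 5 libraries was measured by 3′ end sequencing (QuantSeq FWD). The authors deposited raw counts per gene. Per the submitters' processing notes, reads were trimmed with cutadapt 4.2 and aligned to hg19 with Bowtie2 2.3.5.1. Handling of strand, of reads with several alignments and of molecular identifiers is not given in the sources used here, so intervals cover counting error only. Members and gene lists were chosen with earlier results of these data known. Symbols came from RefSeq names (99.36% of genes matched) and gene positions from GENCODE on GRCh37. Differential expression was tested with the edgeR 4.0.16 quasi-likelihood test (R 4.3.3, TMM, filterByExpr, robust estimation, group as the only term), which kept 13616 genes and left out 9843. Benjamini-Hochberg adjustment ran over all tested genes at 0.05. The biological coefficient of variation was 22.3%. Replicate pairs differed by 8.22 to 20.0 in chi-square per degree of freedom, so each was counted. Alternatives used DESeq2 1.42.0, limma 3.58.1, other scalings and filters, a replicate block and single libraries left out. Named by rule were the members, the 3 genes per pathway list with the largest absolute log2 fold change, the neighbour and marker lists, and the 5 genes most like CCND2, CDK6 and CDKN2C, of which some items are not reported here. The script was tested on simulated data.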

Additional observations from a re-analysis of the deposited data

How the results depend on the processing

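The number of genes past the edgeR threshold was 28. It was 136 with DESeq2, 148 with no filter on low counts and 18 where each library had to hold 10 counts, 11 under the stricter adjusted p of 0.01, and 10 to 57 when single libraries were left out. Limma-voom, DESeq2 size factors and library size alone gave 20, 29 and 19. A stricter p can only lower it, and the cause of the other changes was not tested. Members other than CCND2 past the threshold numbered 0 in all 13 fits. Pathway genes past it were 0, and 1 with DESeq2, 1 with no filter (CDKN1A in both) and 0 to 1 with single libraries left out (CDKN1C).

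Both groups have a replicate 1 and a replicate 2, and the labels do not state a tie between them. Libraries with equal replicate numbers carry consecutive identifiers, the meaning of which is not given. Over genes, replicate 1 minus replicate 2 correlated between the groups at 0.0146, so no pairing was assumed. With the replicate block, 103 genes and 1 pathway gene (CUL4B, log2 fold change -0.88, edgeR adjusted p = 0.0411) passed. CCND2 was at 6.27, CCND3 reversed to 0.16, and the medians of the CIP/KIP and transcriptional regulator lists were 0.14 and 0.12. Because NTC replicate 3 has no part in that group difference, the fit is not independent of leaving this library out. It differs in also tying libraries of equal replicate number, a tie the labels do not state. With NTC replicate 3 left out and no such tie, 57 genes and 0 pathway genes passed, so the CUL4B call was made only with the tie. Without NTC replicate 3, CCND2 was at 6.36, CCND3 at 0.17 and those medians at 0.15 and 0.11.

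Of 84 alternative values of the 7 tested members other than CCND2, 74 kept the direction and the side of the threshold and 10 reversed. With single libraries left out, CCND3 ran from -0.20 to 0.17, CDK4 from -0.31 to 0.13, CDKN2C from -0.22 to 0.14 and RB1 from -0.09 to 0.13. The median of the G2/M list ran from -0.44 to 0.07, that of the G1/S E2F targets from -0.001 to 0.46, that of the pocket protein and E2F list from -0.06 to 0.29 and that of the cyclin E and A list from -0.30 to 0.23. The main values of the 4 members lie within 0.08 of 0 on the log2 scale. Low counts limit CDKN2A and CDKN2B, with at most 4 counts in any library, and the control level of CCND2, with 1 to 6 counts.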
